A study of Equus caballus with 4 samples.

Results

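Messenger RNA of 5 chemokine genes was examined in equine satellite cells, the muscle stem cells that divide and fuse into myofibers. The genes were *CXCL9*, *CXCL10* and *CXCL11*, whose proteins bind the receptor CXCR3, and *CXCL12* and *CXCL16*. They were taken by gene symbol from the annotation in the scanner files, and they were chosen by the measured ratios of these same arrays, so their values are a description and carry no test. They accounted for 5 of 14447 gene symbols and for 26 of 43603 different probes, printed in 30 of 43803 non-control spots on each array.

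The cells came from *m. semitendinosus* of stallions aged 6 months and were examined on day 3 of differentiation. HMB-treated cells received HMB, which cells make from leucine, at 50 µM for 24 h, with 3 mM H2O2 during the last 1 h. Control cells were exposed to H2O2 without HMB, hence no cells without H2O2 were compared. The methods name 1 culture, selected among those of all horses for its viability and fusion index, so the 4 arrays give no spread between horses and p-values measure only the spread between these samples. On each of the 4 arrays, RNA of HMB-treated cells carried Cy5 and RNA of control cells carried Cy3. The dyes were not swapped, so the treatment and the dye cannot be told apart. In the labels, the Cy3 sample of all 4 arrays has 1 and the same number. If it was 1 RNA, the spread between control samples is missing from the SD given here.

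Chemokines are small secreted proteins that guide cells along a gradient. *CXCL9*, *CXCL10* and *CXCL11* are classically induced by interferons, with NF-kB as a further activator of *CXCL10*, and they attract activated T cells and NK cells through CXCR3. CXCL12 is made constitutively in many tissues and acts on CXCR4 and ACKR3. In muscle it is known for guiding migrating myogenic cells. CXCL16 is made as a membrane protein that is shed by the proteases ADAM10 and ADAM17, and it binds CXCR6.

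The probes themselves set what can be read. All are 60 bases long, and those of 1 gene lie in 1 short stretch of RNA, each overlapping the next, so they are not independent. Not all *CXCL10* probes share bases. A_69_P001355 covers bases 1 to 60 of the stretch, A_69_P001352 bases 62 to 121 and A_69_P001351 bases 82 to 141. The 5 *CXCL10* probes covered 141 bases, the 5 *CXCL11* probes 64, the 2 *CXCL9* probes 80, the 9 *CXCL12* probes 66 and the 5 *CXCL16* probes 65. The sequences of the 3 genes that the interferon response links are shown because these genes are paralogs, whose probes could in principle bind the same RNA. Capitals mark the longest run that a probe shares with any probe of the other CXCR3 ligands. The *CXCL10* probes are given in their order along the RNA, followed by 1 *CXCL11* probe and both *CXCL9* probes, from 5′ to 3′.
CXCL10, A_69_P001355: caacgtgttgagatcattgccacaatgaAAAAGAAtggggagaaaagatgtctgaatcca
CXCL10, A_69_P001354: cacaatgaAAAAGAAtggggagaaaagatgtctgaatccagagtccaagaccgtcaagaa
CXCL10, A_69_P001353: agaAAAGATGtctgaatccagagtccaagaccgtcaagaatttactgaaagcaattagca
CXCL10, A_69_P001352: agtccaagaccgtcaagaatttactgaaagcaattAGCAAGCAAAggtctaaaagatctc
CXCL10, A_69_P001351: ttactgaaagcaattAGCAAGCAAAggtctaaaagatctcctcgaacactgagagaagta
CXCL11, A_69_P083309: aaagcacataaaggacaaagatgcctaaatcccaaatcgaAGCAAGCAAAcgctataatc
CXCL9, A_69_P006401: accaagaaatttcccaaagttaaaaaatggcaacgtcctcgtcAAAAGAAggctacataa
CXCL9, A_69_P006402: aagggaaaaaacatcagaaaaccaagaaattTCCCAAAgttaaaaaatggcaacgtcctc

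The longest run that the probes of 2 of these genes had in common was 10 bases, AGCAAGCAAA, in *CXCL10* and *CXCL11*. Of the 43603 probe sequences searched, 0 probes with another symbol shared a run of 20 bases with a probe of any of the 5 genes. In EquCab1, the build of the array annotation, the 3 genes lay on the minus strand of chromosome 3, with *CXCL9* probes at chr3:39227447-39227526, *CXCL10* probes at chr3:39251580-39252405 and *CXCL11* probes at chr3:39281551-39282491. The *CXCL10* probes A_69_P001351 and A_69_P001352 each spanned 521 bases of the chromosome and A_69_P001355 spanned 284, which means that they cross an intron. *CXCL16* probes lay at chr11:48554590-48554654 and *CXCL12* probes at chr1:67047644-67047709. The files give no exon or UTR for them.

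In the ratios of HMB-treated over control cells, *CXCL10* and *CXCL11* were higher on all 4 arrays by every probe, with mean fold changes (FC) of 56.6 to 89.4 for *CXCL10*. For *CXCL11* the FC was 10.2 by the probe whose control signal was above background on the most arrays. By that probe it was 2.98 with another background correction (normexp) and 4.36 with none, so this size is not firm either. By 3 further probes the control was not well above background on any array, so their higher ratios have no firm size. *CXCL16* was higher by an FC of 2.99 to 3.18. *CXCL9* gave no constant direction over the arrays, and the stretch read by the *CXCL12* probes was at background. A probe was tested when 1 or both channels were well above background on all 4 arrays and at least 3 arrays gave a ratio, and it was called at an adjusted p of 0.05 or less (limma, Benjamini-Hochberg over all tested probes) and an FC of 1.3 or more. Of 24670 tested probes, 28.6% were called, 12.1% higher and 16.4% lower in HMB-treated cells. This balance depended on the scaling, with 2996 higher and 4050 lower by the deposited ratios, 4823 and 2805 with median centering without lowess, and 1247 and 17324 when scaled to the spike-in RNA. The 5 genes had 16 tested probes, of which 15 were called higher and 0 lower. Because the genes were chosen with this contrast known, that count is given beside the background and nothing is read from it.

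**Figure D1:**
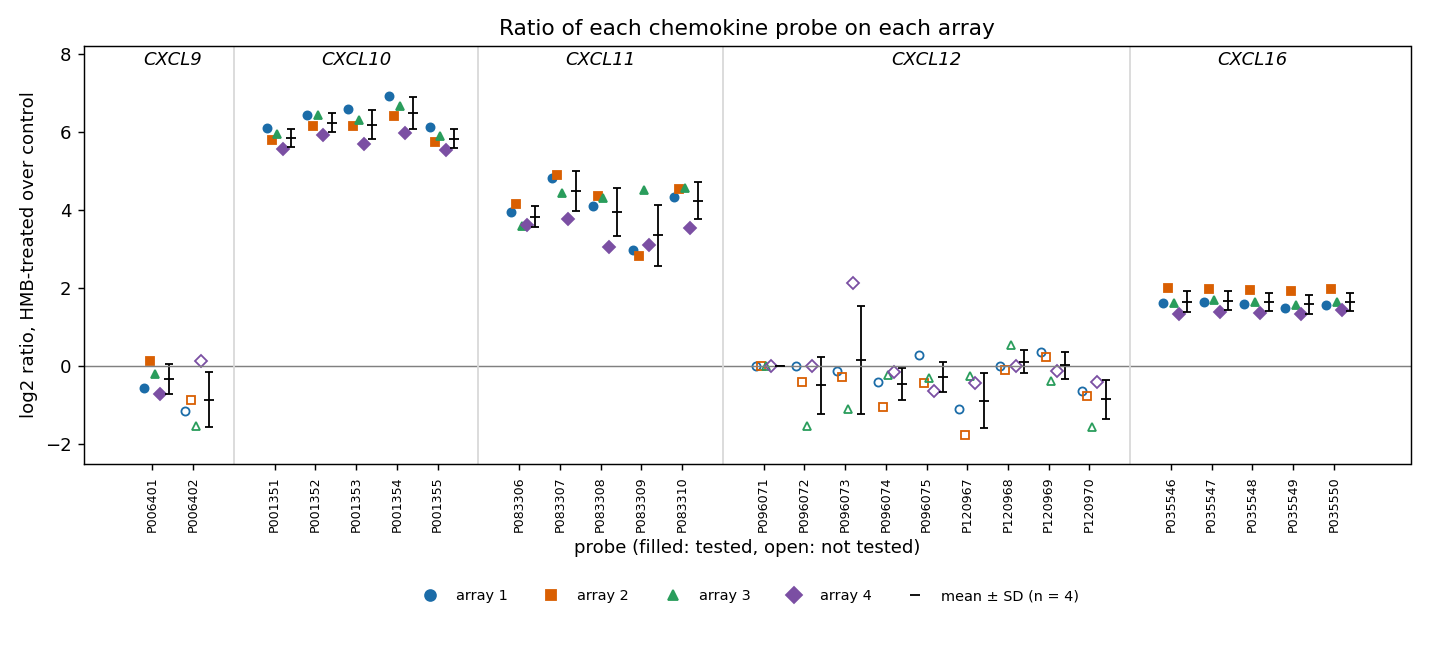
Log2 ratio of HMB-treated over control cells (vertical axis) for each of the 26 probes (horizontal axis, grouped by gene, names without the shared A_69 prefix) on each of the 4 arrays, with the mean and SD over the 4 arrays beside the points. The *CXCL10* points lie between 5.53 and 6.91, those of *CXCL11* between 2.81 and 4.90 and those of *CXCL16* between 1.33 and 1.99, while those of *CXCL9* and *CXCL12* lie on both sides of 0.

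*CXCL10* codes for a chemokine that is used as a marker of interferon exposure. The gene is represented here by the probe A_69_P001353, the tested *CXCL10* probe of highest mean intensity. Its processed Cy3 signal in control cells was 130, 177, 216 and 171 on arrays 1 to 4. The Cy5 signal in HMB-treated cells was 12500, 12500, 17000 and 8830. The channels did not overlap, and the lowest HMB-treated value was on array 4. The log2 ratios were 6.58, 6.14, 6.30 and 5.69, with a mean of 6.18 ± 0.37 (SD, n = 4), an FC of 72.4.

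The other 4 *CXCL10* probes gave mean log2 ratios of 5.84 ± 0.23 for A_69_P001351, 6.23 ± 0.24 for A_69_P001352, 6.48 ± 0.41 for A_69_P001354 and 5.82 ± 0.25 for A_69_P001355 (SD, n = 4 each). Array 4 gave the lowest ratio by every one of the 5 probes. All 40 channel values of these probes were well above background, so both sides of each ratio were measured. Among all tested probes sorted by mean log2 ratio, the *CXCL10* probes ranked between 12 and 26.

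A_69_P001351 was printed in 5 spots on each array and therefore gave a technical error within the array. Over its 5 spots, the SD of the log2 ratio was 0.046, 0.069, 0.078 and 0.108 on arrays 1 to 4. The SD of the same probe between arrays was 0.23, above each of the 4 values within an array. The Cy3 signal of this probe, which sets the denominator, ranged from 106 to 159, and its Cy5 signal from 4950 to 9700.

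*CXCL11* codes for the CXCR3 ligand known for the highest affinity of the 3. In HMB-treated cells it was above background by every probe on every array, and in control cells by few. Of the 20 Cy5 values 20 were well above background, and of the 20 Cy3 values 4 were. The representative probe, A_69_P083309, had Cy5 signals of 370, 685, 610 and 269 and Cy3 signals of 47.2, 97.5, 26.8 and 31.3 on arrays 1 to 4. The channels did not overlap. Its log2 ratios were 2.97, 2.81, 4.51 and 3.10, with a mean of 3.35 ± 0.78 (SD, n = 4), an FC of 10.2, and array 3 stood above the other 3.

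The other *CXCL11* probes were displaced from A_69_P083309 by only 1 to 3 bases, yet their Cy3 signals differed from it. On array 2, where A_69_P083309 read 97.5, the Cy3 signal was 34.7 by A_69_P083306, 21.1 by A_69_P083307, 30.4 by A_69_P083308 and 27.3 by A_69_P083310. The Cy5 signals of the same 4 probes on that array lay between 615 and 632. The mean log2 ratios of the 4 probes were 3.83 ± 0.27, 4.48 ± 0.52, 3.95 ± 0.61 and 4.24 ± 0.47, respectively (SD, n = 4 each), and came with differing readings of the control channel near background.

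By the probes A_69_P083307, A_69_P083308 and A_69_P083310, *CXCL11* was not well above background in control cells on any array. The control level was then not measured by these probes. For each array, the higher of the probe's own Cy3 signal and the lowest Cy3 signal among probes above background was taken. This gave *CXCL11* 19.1-fold, 15.0-fold and 17.9-fold higher in HMB-treated cells, respectively. The lowest signal replaced the probe's own on only 2, 1 and 1 of the 4 arrays, so these values are no firm lower limits. They were computed from processed signals after Aquantile normalization between arrays, and without swapped dyes they are open to dye bias. The background correction also moved this gene. The mean log2 ratio of A_69_P083309 was 1.57 with normexp and loess and 2.12 with loess without background correction, an FC of 2.98 and 4.36. For A_69_P083307, A_69_P083308 and A_69_P083310, the FC was 3.60, 2.67 and 3.48 with normexp and loess. Without background correction it was 5.31, 3.93 and 5.27.

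**Figure D2:**
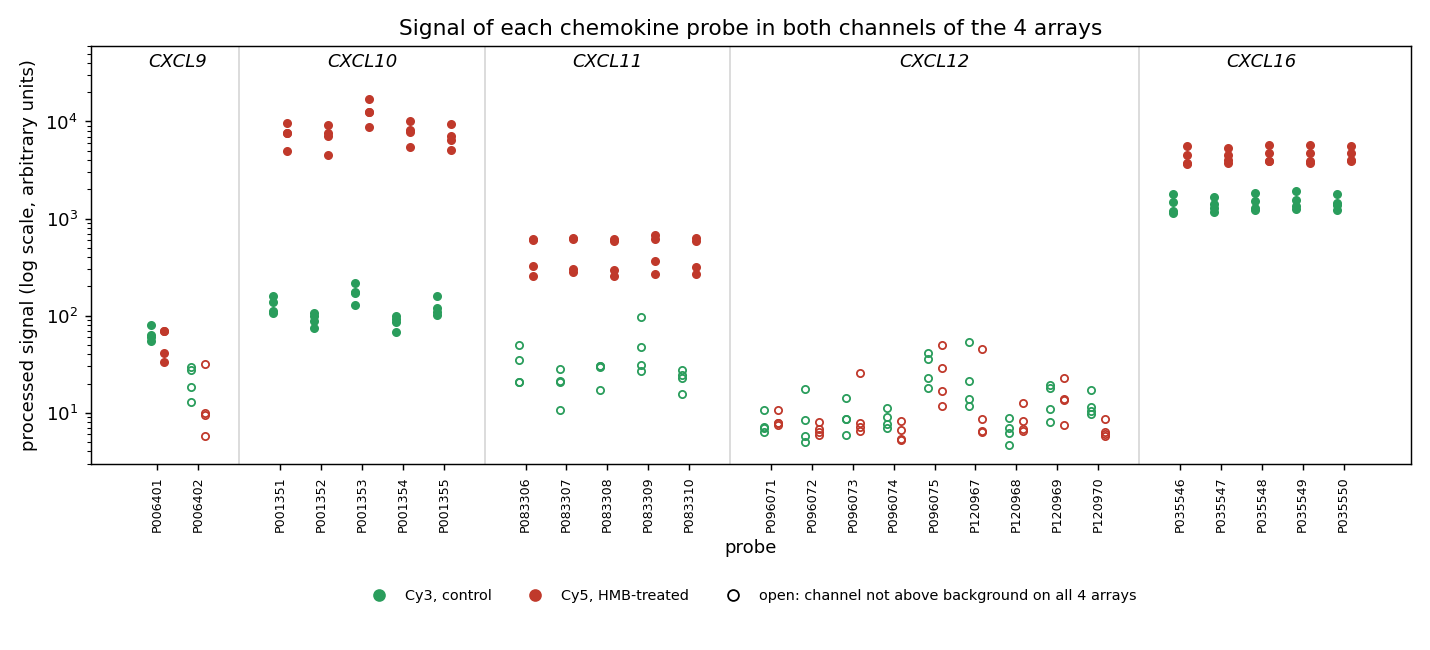
Processed signal (vertical axis, log scale, arbitrary units) of each of the 26 probes (horizontal axis, grouped by gene) in the Cy3 channel of control cells and the Cy5 channel of HMB-treated cells, 1 point per array, open where that channel was not well above background on all 4 arrays. The Cy3 points of *CXCL11* are open while its Cy5 points are filled, both channels of *CXCL10* and *CXCL16* are filled, and all points of *CXCL12* are open.

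*CXCL9* codes for the CXCR3 ligand that is classically tied to interferon gamma. Its tested probe, A_69_P006401, had Cy5 signals of 41.1, 69.3, 70.2 and 33.5 and Cy3 signals of 60.8, 63.0, 80.4 and 55.1, all well above background. The channels overlapped. Its log2 ratios were -0.56, 0.14, -0.20 and -0.72, lower on 3 arrays and higher on 1, with a mean of -0.34 ± 0.38 (SD, n = 4). The SD was larger than the mean, and the probe was not called. The second probe, A_69_P006402, was displaced by 20 bases and was not tested. Its Cy5 signal was well above background on 1 array and its Cy3 signal on 2, and its mean log2 ratio was -0.86 ± 0.71 (SD, n = 4). With normexp and loess, the mean of A_69_P006401 was -0.02.

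Side by side on the same arrays, the 3 CXCR3 ligands thus gave different ratios. On array 4, the log2 ratio of the representative probe was 5.69 for *CXCL10*, 3.10 for *CXCL11* and -0.72 for *CXCL9*. On array 2, it was 6.14, 2.81 and 0.14, respectively. Within each of the 4 arrays, the ranges over the probes of the 3 genes did not overlap, with *CXCL10* above *CXCL11* and *CXCL11* above *CXCL9*.

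*CXCL16* codes for the transmembrane chemokine that also takes up oxidized lipoprotein. It was well above background in both channels of all 4 arrays by every probe. The representative probe, A_69_P035549, had Cy3 signals of 1340, 1260, 1920 and 1570 in control cells and Cy5 signals of 3720, 4790, 5720 and 3950 in HMB-treated cells. The channels did not overlap. The log2 ratios were 1.48, 1.93, 1.58 and 1.33, with a mean of 1.58 ± 0.25 (SD, n = 4), an FC of 2.99.

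The 5 *CXCL16* probes gave nearly the same value, with mean log2 ratios between 1.58 and 1.67 and an SD between the probe means of 0.034. Beside A_69_P035549 these were 1.64 ± 0.27 for A_69_P035546, 1.67 ± 0.25 for A_69_P035547, 1.64 ± 0.24 for A_69_P035548 and 1.64 ± 0.23 for A_69_P035550 (SD, n = 4 each). They lie within 65 bases, so this is the agreement of repeated readings of 1 stretch. Array 2 was the highest and array 4 the lowest by each of the 5 probes. Scaled to the spike-in RNA, the mean of A_69_P035549 was 1.09, an FC of 2.13.

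*CXCL12* codes for the chemokine that keeps CXCR4-bearing cells in place in marrow and other tissues. Of its 72 channel values over 9 probes, 4 were well above background, from A_69_P096075 on array 1 and A_69_P120967 on array 3, each in both channels. In the scanner files, 28 of the 72 values were surrogates for a signal at background, and 8 of the 36 ratios were exactly 0. None of the 9 probes was tested. The probe of highest mean intensity, A_69_P096075, had Cy5 signals of 50.2, 16.7, 28.8 and 11.7 and Cy3 signals of 41.6, 22.6, 35.6 and 18.1. The channels overlapped, and the mean log2 ratio was -0.27 ± 0.39 (SD, n = 4).

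The identical sequence was printed under 2 names for 2 pairs of *CXCL12* probes, which showed the error at this signal. The log2 ratios of A_69_P096075 and A_69_P120968 differed by 0.27 to 0.84 on the same array. On arrays 1 and 4 the ratio of A_69_P120968 was exactly 0, so the difference there is the ratio of A_69_P096075 alone. On array 1, these 2 names read 50.2 and 6.79 in Cy5 and 41.6 and 4.68 in Cy3, respectively. Those of A_69_P096074 and A_69_P120967 differed by 0.03 to 0.73. Over the 9 probes, the mean log2 ratio ran from -0.88 to 0.16. By these 9 probes, a difference of *CXCL12* between the groups was not detectable at this signal.

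The *CXCL12* values bear only on RNA that holds the stretch the probes read. *CXCL12* is known to be spliced into forms that differ at the 3′ end, and forms without these 66 bases would not be read. The first 30 bases of A_69_P096075 are shown so that the stretch can be identified, without capitals.
CXCL12, A_69_P096075: acagaagaagagaaaggctgctcagaaaag
A set of 5 further probes to which the files give no gene lay 2680 bases before this stretch, on the same strand. One of them is shown with the bases that its listed position covers, chr1:67044920-67044964, in capitals.
No gene, A_69_P120931: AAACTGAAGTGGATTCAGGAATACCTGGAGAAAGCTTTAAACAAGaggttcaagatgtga

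These 5 probes were noticed by their position after the values had been seen. They carry no gene symbol, so they are not counted among the probes of the 5 genes. They were well above background in both channels of all 4 arrays. Their mean log2 ratios were 0.35 to 0.60. By limma, 4 of the 5 were called higher in HMB-treated cells, with adjusted p of 0.00618 to 0.0339, and A_69_P120935 was not called (adjusted p = 0.0542). They overlap by all but a few bases and are 1 reading. A_69_P120931 gave 0.56 ± 0.31 (SD, n = 4). Which gene they read, and whether it is another form of *CXCL12*, was not tested. The background signal of the named *CXCL12* probes therefore does not show that *CXCL12* as a whole was absent or unchanged.

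The receptors of these chemokines were mostly at background. *CXCR3*, *CXCR4* and *CXCR6* had 0 of 4 arrays well above background in either channel and were not tested. Their mean log2 ratios were 0.26 ± 0.93, -1.04 ± 0.23 and -0.16 ± 0.18, respectively (SD, n = 4), each between 2 channels that were not well above background. *ACKR3*, the atypical receptor that binds CXCL11 and CXCL12 and removes them, was above background in both channels of all 4 arrays. It rose by a log2 ratio of 1.00 ± 0.45 (SD, n = 4, adjusted p = 0.00413, limma), with 1.16 on array 1, 1.20 on array 2, its highest value on array 3 and 0.32 on array 4. With the methods' t-test, its adjusted p was 0.0614.

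*DPP4*, the peptidase that trims and inactivates the N terminus of CXCR3 ligands and of CXCL12, had Cy3 well above background on 3 of 4 arrays and Cy5 on 0, and was not tested. Its log2 ratios were -1.02, -2.10, -1.14 and -1.39. Among the 10 genes of receptors and ligand processing, 6 were tested, of which 3 rose, 0 fell and 3 did not pass. The 3 that rose were *ACKR3* and the gelatinases *MMP2* (0.66 ± 0.37, adjusted p = 0.0103) and *MMP9* (0.59 ± 0.24, adjusted p = 0.00457), which cleave chemokines of this family (SD, n = 4, limma). *ADAM10* gave 0.24 ± 0.21 and *ADAM17* -0.15 ± 0.19 (SD, n = 4). The median over the 6 genes was 0.41, beside -0.07 over all tested probes, of which 12.1% were called higher and 16.4% lower. *MMP2* and *MMP9* were no longer called with the methods' t-test, with treat or when scaled to the spike-in RNA. The call of *MMP9* was also lost with normexp, and that of *MMP2* without the filter on dim probes.

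Upstream of the CXCR3 ligands, interferons bind their receptors, JAK kinases phosphorylate STAT proteins, and these, with IRF factors and NF-kB, act at the ligands' promoters. Of 19 listed genes, 14 were named on the array and 11 were tested, of which 8 rose, 0 fell and 3 did not pass. Over all tested probes, 12.1% were called higher and 16.4% lower. The median over the 11 was 0.95. *IRF7*, a factor of interferon amplification, rose by a log2 ratio of 3.45 ± 0.23 (SD, n = 4, adjusted p = 3.27e-06, limma), with Cy3 signals of 1690 to 2140 and Cy5 signals of 14700 to 26800. *JAK2* rose by 2.36 ± 0.24 (adjusted p = 1.76e-05), and *IRF9*, a DNA-binding subunit of the complex activated by type I interferon, by 1.78 ± 0.19 (adjusted p = 3.07e-05) (SD, n = 4, limma).

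*IFNB1*, which codes for interferon beta, rose by 3.42 ± 1.11 (SD, n = 4, adjusted p = 0.000924, limma), with log2 ratios of 2.14, 3.88, 4.70 and 2.95. In control cells, it was well above background on 1 of 4 arrays, and in HMB-treated cells on all 4, so the size of its ratio rests on a control near background. With normexp its mean log2 ratio was 0.63 and without background correction 1.00, and it was called with both. *JAK2* gave 1.68 with normexp. *IFNG*, which codes for interferon gamma, stayed at background in both channels of all 4 arrays and was not tested. The other genes that rose were *IFNAR2*, *STAT2*, *IRF1* and *NFKB1*, whereas *IFNAR1*, *JAK1* and *RELA* did not pass by their representative probes. Of 2 tested *IFNAR1* probes, 1 was called lower. *IFNAR2* was no longer called with the methods' t-test (adjusted p = 0.0534), with treat or when scaled to the spike-in RNA, and *STAT2* with treat or when scaled to the spike-in RNA. With that scaling, *IFNAR1* and *JAK1* were called lower. Without array 3, the representative probe of *IFNAR1* was also called lower (-0.41).

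*CXCL1*, *CXCL3*, *CXCL6* and *CXCL8*, whose proteins attract neutrophils, rose. Of 11 other CXC ligands listed, 8 were named on the array and 5 were tested, of which 4 rose, 0 fell and 1, *PF4*, did not pass (0.18 ± 0.24). The shares over all tested probes were 12.1% called higher and 16.4% called lower. *CXCL1* rose by a log2 ratio of 6.39 ± 0.51 (adjusted p = 3.35e-06), *CXCL6* by 6.04 ± 0.52 (adjusted p = 4.62e-06), *CXCL8* by 5.25 ± 0.48 (adjusted p = 5.75e-06) and *CXCL3* by 3.46 ± 0.30 (adjusted p = 6.63e-06) (SD, n = 4, limma). In control cells, *CXCL1* and *CXCL6* were well above background on 3 of 4 arrays and *CXCL8* on 2, so the sizes of these 3 ratios rest on a dim control. Without background correction, the mean log2 ratio of *CXCL1* was 5.08, and with normexp it was lower still. With normexp, the ratio was 3.81 for *CXCL6*, 2.95 for *CXCL8* and 2.11 for *CXCL3*, and all 4 genes were called. *CXCL13*, *CXCL14* and *PPBP* were not tested.

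**Figure D3:**
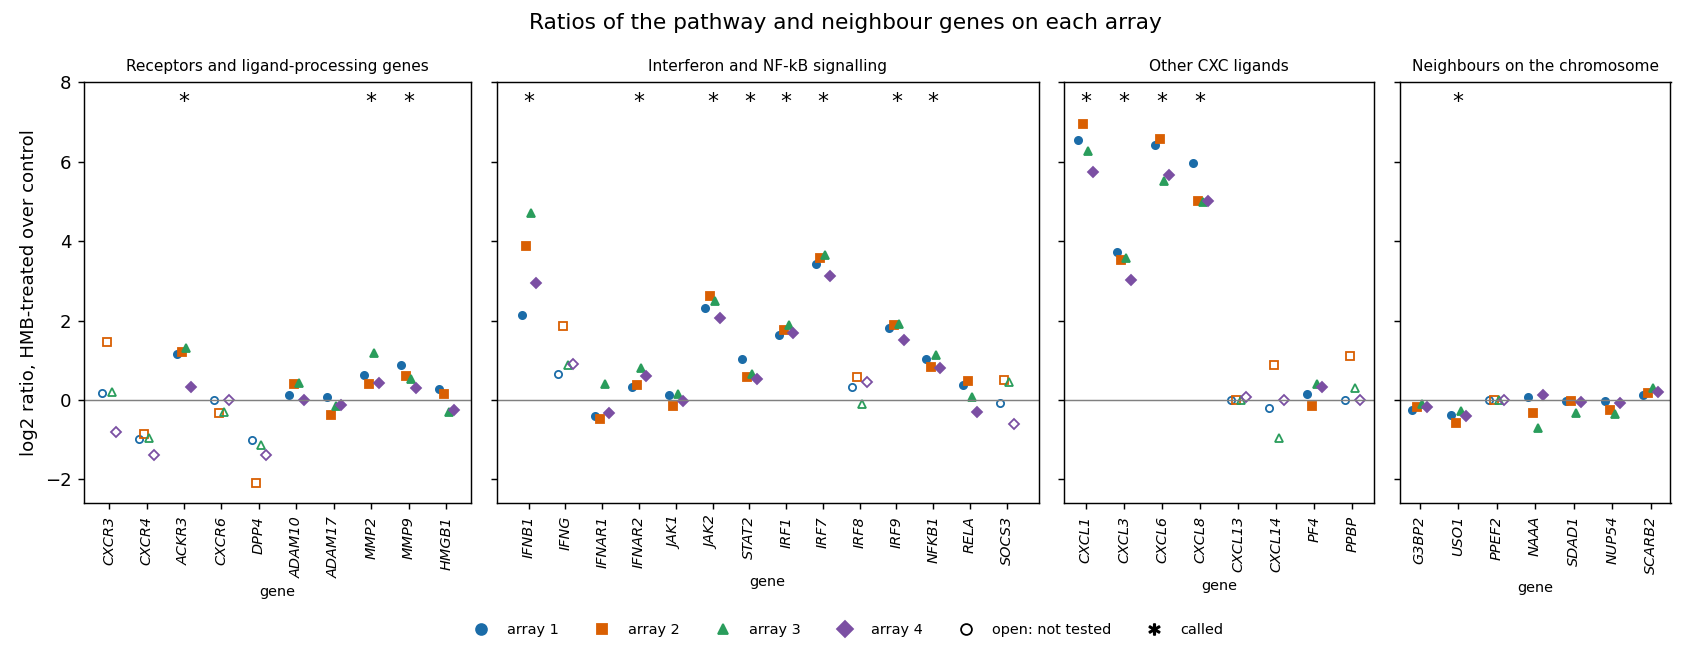
Log2 ratio of HMB-treated over control cells (vertical axis) on each of the 4 arrays for the genes (horizontal axis) of 4 lists that were named on the array, with open points for genes that were not tested and an asterisk for called genes. The points of *CXCL1* and *CXCL6* lie between 5.53 and 6.96, and the means of the tested genes beside the chemokine cluster lie between -0.41 and 0.20.

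In the RefSeq gene table of a newer horse assembly, used for gene order alone, *CXCL11*, *CXCL10* and *CXCL9* follow each other between *ART3* and *SDAD1*. Of 9 listed neighbours, 7 were named on the array and 6 were tested, of which 0 rose, 1 fell and 5 did not pass, beside 12.1% called higher and 16.4% called lower over all tested probes. The range over the 6 was -0.41 to 0.20, and their median was -0.18. *USO1*, a vesicle tethering factor, gave a lower ratio of -0.41 ± 0.12 (SD, n = 4, adjusted p = 0.00468, limma), just past the threshold of FC, and without array 2 it was no longer called. *SCARB2*, a lysosomal membrane protein, was higher on all 4 arrays (0.20 ± 0.08, SD, n = 4, adjusted p = 0.0392, limma) but below the threshold of FC. With median centering it was called (0.39), and *USO1* was not (-0.23). Scaled to the spike-in RNA, *SCARB2* gave -0.28 and was not called. *SDAD1*, next to *CXCL9*, gave -0.11 ± 0.14, and *NUP54*, on the side of *CXCL11*, gave -0.18 ± 0.15 (SD, n = 4).

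The 4 ratios of each gene's representative probe were compared with those of 8602 other genes by the root mean square difference over the arrays. Nearest to *CXCL10* were *CXCL1* (0.41), *CXCL6* (0.45) and *CCL20* (0.62). Nearest to *CXCL11* were *PTGS2* (0.43), which codes for the inducible cyclooxygenase, *SLFN5* (0.46) and *TNFSF15* (0.50). *CXCL16* had closer matches, *NT5C3A* (0.08), *TEX9* (0.10) and the adaptor gene *MYD88* (0.14). *CXCL9* was nearest to *NRBP1* (0.11), *PNN* (0.13) and *IL32* (0.13). Few genes have ratios as high as that of *CXCL10*, so its matches are drawn from a sparse range, and 4 arrays limit the measure for all.

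The samples were total RNA of whole cultures, in which more cells of a type and more RNA per cell cannot be told apart. Of the 7 myogenic markers tested, 5 were called lower and 0 higher, led by *MYF5* (-1.49 ± 0.34) and *MYH3* (-1.38 ± 0.33). *MYOD1* (0.32 ± 0.25) and *MYOG* (0.03 ± 0.22) were not called. Of the 7 fibroblast markers tested, 5 were called higher and 0 lower, led by *PDGFRA* (1.49 ± 0.26) (SD, n = 4). Not called were *COL1A2* (-0.23 ± 0.34) and, by its representative probe, *COL3A1* (0.06 ± 0.29, SD, n = 4). Of 7 *COL3A1* probes, 3 were called higher. Over all tested probes, 12.1% were called higher and 16.4% lower. The summed signal over the myogenic markers was 165000 to 186000 in control and 62400 to 99400 in HMB-treated cells, and over the fibroblast markers 417000 to 507000 and 411000 to 642000. *COL1A2* and *COL3A1* made up most of the fibroblast sums. The part of these cell types in the chemokine ratios was not tested. Of 8 T and NK cell markers, 6 had no channel above background on any array, and the summed signal was 125 to 135 in control and 117 to 149 in HMB-treated cells. *CD3D* was above background on all arrays and was not called (-0.04 ± 0.17, SD, n = 4). Of 5 endothelial markers, 4 had no channel above background, with sums of 43.7 to 83.3 and 49.9 to 80.9. Of 6 myeloid markers, 3 had no channel above background, with sums of 3690 to 4440 and 4160 to 6210. Most of these sums was *CD14*, at 3590 to 4320 and 3980 to 5980, which was not called (0.20 ± 0.19, SD, n = 4), and *CD68*, also made in other cells, was called higher (0.88 ± 0.20, SD, n = 4). Fitted to equal amounts, the ratio of the spike-in RNA was 0.37 to 0.57 on the log2 scale in place of 0, and each array had 13 to 35 marked and 0 saturated spots, none of them a probe of the 5 genes.

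The choice of background correction moved the ratios of dim probes more than those of bright ones. For *CXCL10*, the range over the 5 probes was 4.71 to 5.31 with normexp and loess, and 5.15 to 5.71 without background correction. For *CXCL11*, it was 1.42 to 1.85 and 1.98 to 2.41, respectively. For *CXCL16*, it was 1.52 to 1.57 and 1.63 to 1.69. *CXCL10* and *CXCL11* were higher in HMB-treated cells by every probe under each of these settings and when scaled to the spike-in RNA. The order of *CXCL11* and *CXCL16* was less firm, since their ranges overlapped with normexp.

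**Figure D4:**
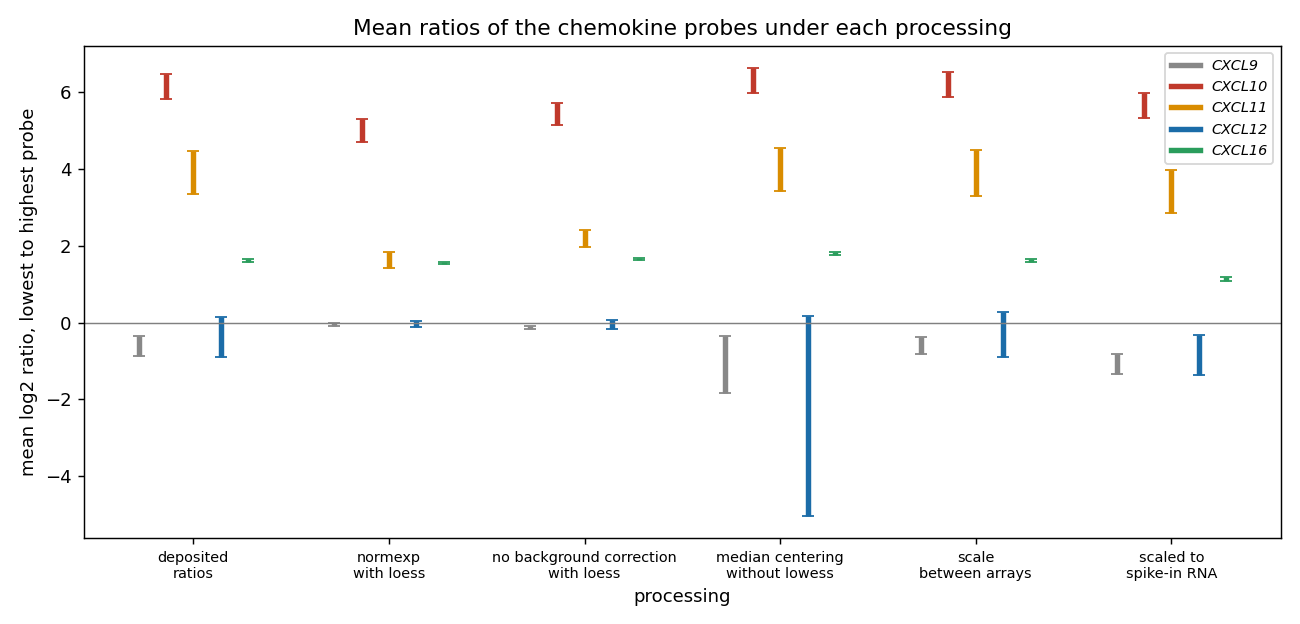
Mean log2 ratio over the arrays (vertical axis) under the deposited ratios and 5 other ways of processing (horizontal axis). Each bar runs from the lowest to the highest probe of a gene, and the *CXCL11* bar moves down to 1.42 to 1.85 with normexp while the *CXCL16* bar stays at 1.52 to 1.57. Without lowess, only 3 of the 9 *CXCL12* probes had a ratio on all 4 arrays, since signals at or below background have none.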

How the data were processed

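RNA of HMB-treated (Cy5) and control (Cy3) equine satellite cells was hybridized together on 4 two-color Agilent horse arrays on 1 slide. The authors deposited scanner output with the intensity of each spot, background-subtracted and normalized within the array (linear and lowess) by Feature Extraction 10.10.1.1 per the file headers, and log10 ratios of Cy5 over Cy3. Their normalized table repeats these log10 ratios, which were converted here to log2 values. Left out were control spots and those marked by the software as uneven or as outliers of their population. Spots of a probe were averaged.

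A probe was tested if Cy3 or Cy5 passed the background flag on each of the 4 arrays and at least 3 gave a ratio. The test was that of limma 3.58.1 (R 4.3.3), with Benjamini-Hochberg correction over all tested probes (adjusted p of 0.05 and FC of 1.3). A gene was represented by its tested probe of highest mean intensity. Symbols were those of the files, updated through RefSeq synonyms (231 probes) and gene numbers (1684 probes). The number of arrays limits the precision. Probes of the 5 genes were given singly, those of *CXCL12* mostly as a range. Of each list, up to 4 called genes of largest ratio, the receptors and *DPP4* were given with values. The 5 genes and the lists were chosen with earlier results of these data known, and 1 gene of a list is not reported here. The test was tried on simulated data. Alternatives comprised the methods' t-test, treat, a trend with robust moderation, other background corrections and normalizations, the authors' table, other filters and each array left out. Scaling to spike-in RNA was added after seeing the data.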

Additional observations from a re-analysis of the deposited data

Results flagged for a closer look

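On 1 array, a *CXCL12* probe stood apart from the other 3. The log2 ratio of A_69_P120968 was 0.54 on array 3, far from its other values in relation to their range. On arrays 1 and 4 its ratio was exactly 0. Neither channel of this probe was well above background on any array. In all, 26 probes were examined in this way. Chance marks about 1 in 20, a rate that need not hold where ratios are exactly 0.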

How the results depend on the processing

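The signs of the *CXCL10*, *CXCL11* and *CXCL16* ratios were positive and those of the representative *CXCL9* and *CXCL12* probes negative under all 12 alternatives run on them. The negative signs are not firm, as the highest of these means were -0.02 for *CXCL9* and -0.01 for *CXCL12*. The sequence of the representative *CXCL12* probe, printed also as A_69_P120968, gave a mean of 0.11 under that name by the deposited ratios. Leaving out 1 array gave log2 ratios of 6.04 to 6.34 for *CXCL10*, 2.96 to 3.53 for *CXCL11*, 1.46 to 1.66 for *CXCL16*, -0.49 to -0.21 for *CXCL9* and -0.45 to -0.15 for *CXCL12*, and 6663 to 7366 called probes. With normexp, *CXCL10* gave 5.31 and *CXCL11* 1.57, and 3539 probes were called (1945 higher, 1594 lower, against 2996 and 4050). Without background correction, these were 5.71, 2.12 and 4440 (2669 higher, 1771 lower). Scaled to the spike-in RNA, an alternative chosen after seeing the data, the median of all tested probes moved from -0.07 to -0.56, with *CXCL9* at -0.82, *CXCL10* at 5.69, *CXCL12* at -0.76, *CXCL16* at 1.09 and 18571 called probes (1247 higher, 17324 lower). Median centering without lowess called 4823 probes higher and 2805 lower. Treat called 2822 probes. Of the receptor and processing genes, 0 were called with the methods' t-test and 1 with treat, against 3. Of the neighbour genes, 0 were called with treat, with normexp, without background correction and without array 2, and 5 when scaled to the spike-in RNA, against 1. With median centering the 1 called neighbour was *SCARB2*, higher, in place of *USO1*, lower. With both channels required above background, 1 other CXC ligand was called, against 4, since fewer were tested. Leaving out 1 array gave 3 to 4 called receptor and processing genes, 8 to 9 upstream genes, 4 other CXC ligands and 0 to 1 neighbours. The other causes were not tested. The ratio pairs both RNAs within an array, so the test was already paired, and no further block could be fitted.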
